A study of Mus musculus with 8 samples.

Results

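This account covers 35 muscle genes measured in mouse liver, 25 of skeletal muscle and 10 of smooth muscle, out of 19532 named genes on the array. A gene was taken when the probe annotation gave its symbol alone, and its probes were averaged in each array. All 35 had at least 1 probe. The genes were chosen with the values of these mutant and wild-type arrays in view, so their differences between genotypes are descriptions and carry no test of their own. Liver RNA came from 4 Per2Brdm1 mutant mice and 4 wild-type mice, all of mixed 129sv and C57Bl/6 background, from 1 cohort, and killed after 8 h of starvation. Each mouse was hybridised to 1 Agilent array with 1 colour (Cy3). Sample titles call the mutants KO, whereas the genotype label gives the Brdm1 allele of Per2, which removes part of the PAS domain. The mutation is in the mouse line itself and is not limited to the liver, and the age and sex of the mice were not given in the sources used here. The series addressed the role of the clock gene Per2 in liver glycogen metabolism.

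Skeletal muscle contracts through sarcomeres, in which myosin thick filaments pull on actin thin filaments. Calcium released from the sarcoplasmic reticulum binds troponin on the thin filament and permits this movement. Fast and slow fibres use different members of the same gene families. Smooth muscle has its own actins and myosin and no troponin, and is driven through phosphorylation of the myosin light chain. Liver parenchyma holds no skeletal muscle fibres, while smooth muscle cells lie in the walls of its vessels and hepatic stellate cells can express smooth muscle actin and desmin.

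The deposited values are differences and not levels, since every probe had a median of 0 across the 8 arrays. They were read as log2 values with higher meaning brighter, and neither the base nor the direction was stated. After each array was shifted to a common 75th percentile, limma called 15.5% of 28042 rows (adjusted p under 0.05, Benjamini-Hochberg), 8.93% lower and 6.52% higher in the mutants. The control features of the array had medians of -0.66 and -0.43 in wild type replicates 2 and 3, against -0.04 to 0.13 on the other 6 arrays. Without the shift the median difference of all rows was 0.20 in place of 0.08, and 61.4% of calls were higher in place of 42.2%. Per2 itself was 0.36, 0.15, 0.18 and 0.28 in mutants, against -0.05, -0.09, -0.22 and -0.33 in wild type (0.42 ± 0.11), without overlap, but where its 2 probes lie relative to the deleted part was not given in the sources used here, so it does not check the labels. Albumin (Alb), the main secreted protein of hepatocytes, spanned only 0.33 over the 8 arrays, but the centring leaves no level with which to check the tissue label. In whole liver, fewer cells of a type and less RNA per cell cannot be told apart. Each difference is the mutant mean less the wild-type mean in log2 units, with the standard error of the limma fit and 4 mice per genotype.

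The 25 skeletal muscle genes had 1 shared profile over the mice. Their mean was -2.15, -2.75, -1.06 and 0.38 in mutants 1 to 4, against -0.19, 1.81, 0.36 and 2.22 in wild type replicates 1 to 4. The first 3 mutants were low and wild type replicates 2 and 4 were high, while the fourth mutant lay just above wild type replicates 1 and 3. From the lowest to the highest mouse the mean spanned 4.97, which is a 31.3-fold range. Wild type replicate 4 was the highest and wild type replicate 2 the second highest array for 25 of the 25 genes, an order seen in 3.05% of all named genes. Mutant 2 was the lowest array for 20 of them, mutant 1 for 4 (Neb, Tnnt1, Myh4 and Actn3) and mutant 3 for 1 (Tnni1). Mutants 1 to 3 were the 3 lowest arrays for 23 of the 25 genes, against 7.52% of all named genes.

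**Figure D1:**
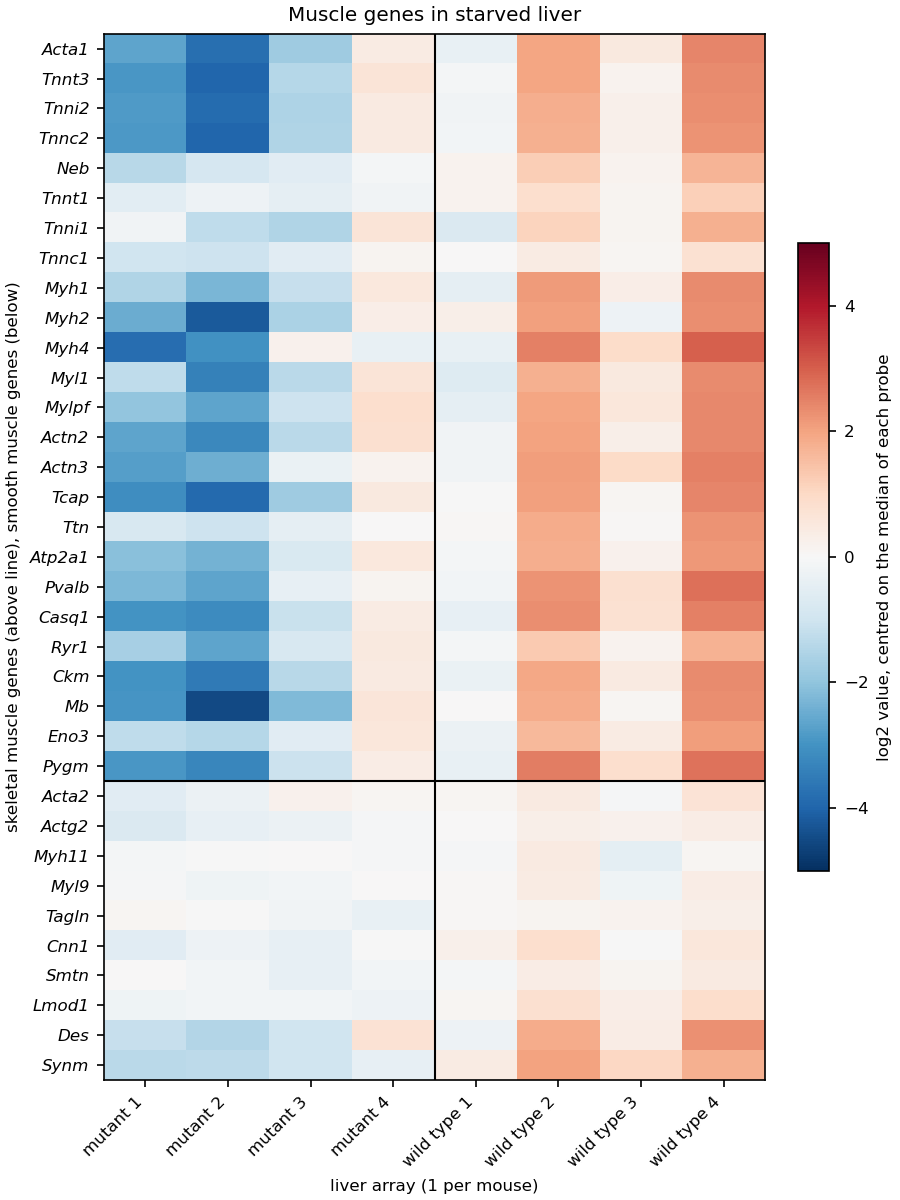
Values of the 35 muscle genes (rows) in the 8 liver arrays (columns), each the mean of the probes of a gene on the log2 scale after centring per probe. Skeletal genes, above the line, are low in mutants 1 to 3 and highest in wild type replicate 4, where their mean is 2.22, while most smooth muscle genes, below the line, stay near 0.

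The skeletal genes varied widely within each genotype. The array means averaged -1.39 ± 1.37 in mutants and 1.05 ± 1.15 in wild type (SD, n = 4 each). The median SD of a skeletal gene was 1.65 among the mutants and 1.23 among wild type, against 0.20 and 0.23 for all named genes. The difference was negative for 25 of 25 skeletal genes, with a median of -2.69, against 0.08 for all rows. Nevertheless the groups did not overlap for only 3 of the 25 (Neb, Tnnt1 and Ttn), beside 14.6% of all rows that lay lower without overlap. Limma called 2 of 25, Neb and Tnnt1, beside the 8.93% of rows called lower, and nothing is read from this count because the genes were chosen on this contrast. At an unadjusted p under 0.05, 24 of 25 were lower, beside 8494 of 28042 rows in either direction. The limma count changed with single mice. It was 0 without any one of mutants 1, 2 and 3 or wild type replicates 2 and 4. Then 16, 15, 20, 15 and 15 genes had an unadjusted p under 0.05, beside 7130 to 8190 rows in either direction. The limma count was 16 without the fourth mutant, beside 3473 of 28042 rows called in either direction. Without wild type replicate 1 the count was 5 (Neb, Tnnt1, Actn3, Pvalb and Pygm), beside 3696 rows.

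The fourth mutant lay nearest to wild type. It was the highest mutant for 24 of the 25 skeletal genes and exceeded wild type replicate 1 for 21 and wild type replicate 3 for 16. It exceeded wild type replicates 2 and 4 for 0 of 25 each. The other 3 mutants lay below all 4 wild-type mice for 23 of 25. The exceptions were Tnni1 and Myh4.

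**Figure D2:**
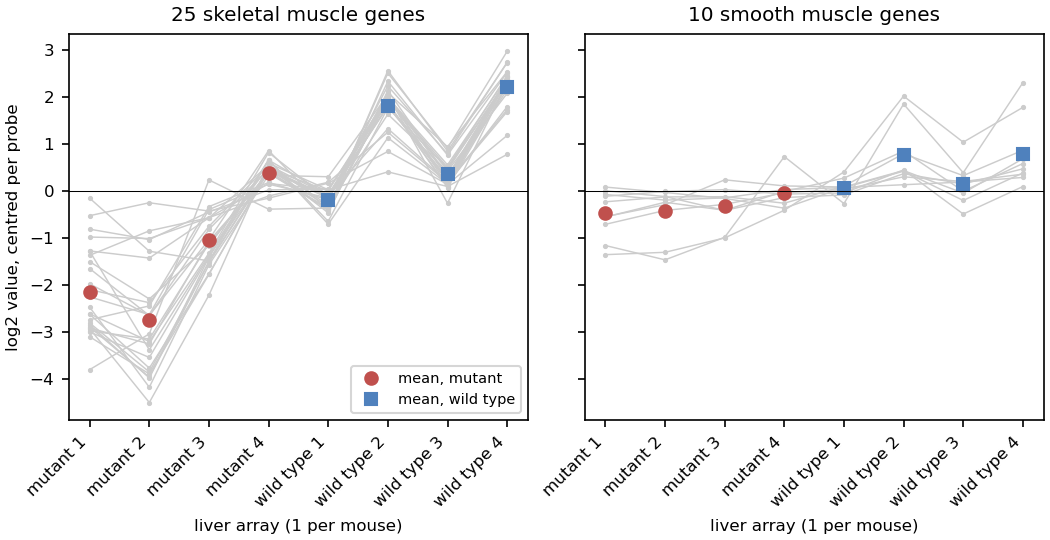
Each grey line joins the 8 array values of 1 gene (log2, centred per probe), for 25 skeletal genes on the left and 10 smooth muscle genes on the right, with circles for the mean in mutants and squares for the mean in wild type. Skeletal means run from -2.75 in mutant 2 to 2.22 in wild type replicate 4, and smooth muscle means from -0.47 in mutant 1 to 0.78 in wild type replicate 4; the order of mice on the axis is only their number.

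Among thin filament genes, Acta1 encodes the actin of adult skeletal muscle. Acta1 was -2.63, -3.78, -1.77 and 0.42 in mutants 1 to 4, against -0.38, 1.96, 0.50 and 2.45 in wild type replicates 1 to 4. The difference was -3.07 ± 0.97, or 8.39-fold lower in the mutants, with overlapping groups. The fast troponin genes Tnnt3, Tnni2 and Tnnc2, which encode the tropomyosin-binding, inhibitory and calcium-binding subunits of fast fibres, differed by -3.02 ± 1.04, -3.01 ± 0.97 and -3.01 ± 0.98. These 4 genes spanned 6.19 to 6.34 from the lowest to the highest mouse, which is 72.8-fold to 80.9-fold.

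The slow troponin genes had smaller differences than their fast counterparts. Tnnt1 was -0.53, -0.25, -0.43 and -0.16 in mutants, against 0.16, 0.84, 0.14 and 1.18 in wild type, and the groups did not overlap (difference -0.92 ± 0.25). Tnni1 was -0.16, -1.29, -1.49 and 0.66 in mutants, against -0.71, 1.13, 0.14 and 1.79 in wild type. Its groups overlapped (difference -1.16 ± 0.66), and its order differed from Acta1 in that mutant 1 lay above wild type replicate 1. Tnnc1, which encodes the troponin C of slow fibres and the heart, differed by -0.93 ± 0.29. Neb encodes nebulin, a protein that runs along the thin filament. Neb was -1.37, -0.85, -0.57 and -0.11 in mutants, against 0.18, 1.25, 0.18 and 1.69 in wild type, without overlap (difference -1.55 ± 0.42).

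The promoters of 4 genes are shown because they carry the actin and myosin families of both muscle types. In addition, 3 of them hold an exact CArG box, the binding motif of serum response factor. Only the exact pattern CCWWWWWWGG (W for A or T) was searched and counted. Sequences that differ from it by 1 base, such as ccctatatgg in the Acta2 window, are not marked, so an unmarked window may still hold a CArG-like element. The windows are the 250 bases before the RefSeq gene start on build GRCm38.p6, 5′ to 3′ on the strand of the gene. Capitals mark CArG boxes, E-boxes (CANNTG, bound by MyoD and other factors) and MEF2 motifs, searched on both strands, and none of the marked motifs overlap.
Acta1 (chr8:123894776-123895025, minus strand): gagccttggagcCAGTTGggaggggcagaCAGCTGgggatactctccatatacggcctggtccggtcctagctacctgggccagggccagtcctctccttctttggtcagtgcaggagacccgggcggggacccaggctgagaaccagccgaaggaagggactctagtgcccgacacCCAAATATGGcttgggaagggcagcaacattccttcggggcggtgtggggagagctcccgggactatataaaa
Myh4 (chr11:67237562-67237811, plus strand): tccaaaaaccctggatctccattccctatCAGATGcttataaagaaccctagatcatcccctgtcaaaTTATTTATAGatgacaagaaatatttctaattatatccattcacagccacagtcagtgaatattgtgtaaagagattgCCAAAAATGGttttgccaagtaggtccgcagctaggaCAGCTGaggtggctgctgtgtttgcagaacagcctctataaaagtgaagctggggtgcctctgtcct
Acta2 (chr19:34255374-34255623, minus strand): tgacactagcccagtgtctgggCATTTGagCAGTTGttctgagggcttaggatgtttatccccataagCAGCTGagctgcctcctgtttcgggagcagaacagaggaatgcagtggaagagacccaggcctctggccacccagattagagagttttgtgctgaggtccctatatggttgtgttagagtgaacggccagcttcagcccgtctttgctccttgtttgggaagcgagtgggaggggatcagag
Myl9 (chr2:156775214-156775463, plus strand): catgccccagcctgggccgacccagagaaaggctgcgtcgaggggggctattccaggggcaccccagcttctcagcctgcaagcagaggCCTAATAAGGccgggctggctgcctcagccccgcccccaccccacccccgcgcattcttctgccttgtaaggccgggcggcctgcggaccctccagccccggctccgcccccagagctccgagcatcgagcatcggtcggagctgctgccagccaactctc
The CArG box begins 73 bases before the start in Acta1, 104 in Myh4 and 161 in Myl9, and the Acta2 window holds 3 E-boxes. RefSeq windows were matched for 20 of the 25 skeletal and 7 of the 10 smooth muscle genes, and Tnnt3, Tnni2, Neb, Actn3, Tcap, Actg2, Myh11 and Tagln were not matched. An exact CArG match was found in 2 of 20 skeletal genes (Acta1 and Myh4) and 1 of 7 smooth muscle genes (Myl9), against 1.62% of the 27025 genes of the table. A MEF2 motif was found in 4 of 20 skeletal genes (Myh1, Myh4, Ttn and Pvalb) and 0 of 7 smooth muscle genes, against 3.42% of genes. E-boxes were found in 17 of 20 and 5 of 7, against 69.3% of genes. Such matches describe the letters only, and whether any of these motifs acts in these mice was not tested.

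Thick filament genes did not all keep the same order of mice. Myh4, Myh1 and Myh2 encode the myosin heavy chains of the fast fibre types. Myh4, of type IIb fibres, was -3.81, -3.05, 0.23 and -0.39 in mutants, against -0.37, 2.51, 0.91 and 2.97 in wild type, a span of 6.78 or 110-fold. Mutant 3 was thus the highest mutant for Myh4, unlike any other skeletal member. Myh2, of type IIa fibres, was -2.48, -4.18, -1.57 and 0.33 in mutants, against 0.30, 2.05, -0.26 and 2.31 in wild type. For Myh2 mutant 3 lay below mutant 4, and wild type replicate 3 lay below wild type replicate 1. The differences were -3.26 ± 1.10 for Myh4, -3.07 ± 1.0 for Myh2 and -2.20 ± 0.80 for Myh1, of type IIx fibres. The fast light chain genes Myl1 and Mylpf differed by -2.33 ± 0.94 and -2.33 ± 0.89, and the groups of all 5 genes overlapped.

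Z-disc and titin genes included both proteins that anchor the thin filaments. Actn2 and Actn3 encode alpha-actinins, and Actn3 is the form of fast fibres. Actn3 was -2.74, -2.45, -0.34 and 0.18 in mutants, against -0.19, 2.09, 0.94 and 2.54 in wild type (difference -2.68 ± 0.85). Actn2 differed by -2.71 ± 0.96. For Actn3, mutant 1 was lower than mutant 2, as for Myh4, while for Actn2 mutant 2 was the lowest at -3.21. Tcap, which encodes the telethonin cap that binds titin at the Z-disc, was -3.11, -3.90, -1.78 and 0.47 in mutants, against -0.002, 2.03, 0.12 and 2.43 in wild type (difference -3.22 ± 1.01).

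Calcium handling genes had the same high and low mice. Atp2a1 encodes the calcium pump of fast fibres, Ryr1 the calcium release channel, Casq1 the calcium store protein calsequestrin and Pvalb the cytosolic calcium buffer parvalbumin. Pvalb was -2.26, -2.64, -0.40 and 0.14 in mutants, against -0.15, 2.23, 0.79 and 2.74 in wild type (difference -2.69 ± 0.84). Casq1 differed by -3.02 ± 0.96, Atp2a1 by -2.19 ± 0.78 and Ryr1 by -1.95 ± 0.70. The groups overlapped for all 4. The third mutant stood at -0.40 for Pvalb, -0.34 for Actn3 and 0.23 for Myh4, against -1.77 for Acta1.

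Energy genes held the widest range of any member. Mb, which encodes the oxygen store myoglobin, was -2.93, -4.51, -2.22 and 0.59 in mutants, against 0.02, 1.87, 0.09 and 2.33 in wild type. That span of 6.84 is 115-fold, and the difference was -3.35 ± 1.08. Ckm, the muscle creatine kinase gene, was -3.00, -3.55, -1.40 and 0.45 in mutants, against -0.33, 1.94, 0.45 and 2.36 in wild type (difference -2.98 ± 0.97). Pygm encodes the muscle form of glycogen phosphorylase. Pygm was -2.92, -3.26, -1.07 and 0.37 in mutants, against -0.39, 2.56, 0.85 and 2.73 in wild type (difference -3.16 ± 0.99). Eno3, the muscle enolase gene, had the smallest difference of these 4, at -1.64 ± 0.63. In each of them mutant 4 lay above wild type replicate 1.

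**Figure D3:**
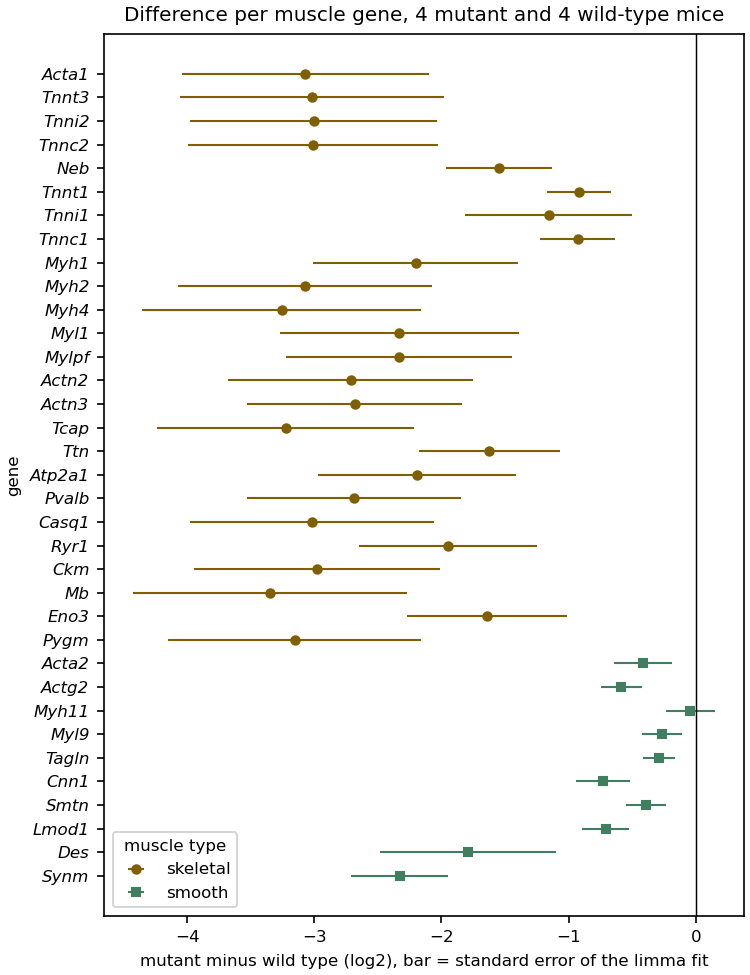
Difference of the mutant from the wild-type mean (log2) for each of the 35 genes, with bars for the standard error of the limma fit (4 mice per genotype). All 25 skeletal genes (circles) lie between -3.35 and -0.92, and 8 of the 10 smooth muscle genes (squares) lie between -0.73 and -0.04, with Des and Synm apart at -1.79 and -2.33.

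Smooth muscle genes differed less than skeletal ones and varied less between mice. Their mean was -0.47, -0.42, -0.33 and -0.05 in mutants 1 to 4, against 0.06, 0.76, 0.15 and 0.78 in wild type replicates 1 to 4. These means did not overlap, and they averaged -0.32 ± 0.19 in mutants and 0.44 ± 0.38 in wild type (SD, n = 4 each). The difference was negative for 10 of 10, with a median of -0.50, against -2.69 for the skeletal genes and 0.08 for all rows. The median SD was 0.21 among mutants and 0.35 among wild type, against 0.20 and 0.23 for all named genes. Limma called 3 of 10 lower (Actg2, Lmod1 and Synm), beside 8.93% of rows, and the groups did not overlap for 4 of 10 (these and Cnn1), beside 14.6% of rows. At an unadjusted p under 0.05, 7 of 10 were lower, beside 8494 of 28042 rows in either direction. The count of 3 was 1 without mutant 1, 2 or 3 or without wild type replicate 2 or 4, and Synm was then the gene called. It was 2 without mutant 4 or wild type replicate 1 or 3.

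The intermediate filament genes Des and Synm carried most of the smooth muscle difference. Desmin and synemin are made in smooth muscle and also in skeletal and cardiac fibres, so these genes do not mark smooth muscle alone. Des was -1.16, -1.47, -0.99 and 0.73 in mutants, against -0.27, 1.85, 0.39 and 2.30 in wild type (difference -1.79 ± 0.69). The mutant 4 value lay above wild type replicates 1 and 3, as for most skeletal genes. Synm was -1.36, -1.31, -1.003 and -0.41 in mutants, against 0.40, 2.02, 1.04 and 1.78 in wild type. All 4 mutants lay below all 4 wild-type mice (difference -2.33 ± 0.38, or 5.02-fold), and the 2 Synm probes differed by -2.23 and -2.43. Without wild type replicates 2 and 3, which had the low control features, 0 of the 35 genes were called by limma. At an unadjusted p under 0.05, 9 of the 35 were then lower, beside 6035 of 28042 rows in either direction.

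The remaining 8 smooth muscle genes had a mean of -0.27, -0.18, -0.16 and -0.10 in mutants, against 0.06, 0.47, 0.01 and 0.46 in wild type. The highest and lowest mice differed by 0.74 in this mean, or 1.67-fold, against 31.3-fold for the skeletal mean. Wild type replicates 2 and 4 were again the highest mice.

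The smooth muscle actins and myosin are the defining genes of that tissue. Actg2, the actin of visceral smooth muscle, was -0.71, -0.42, -0.29 and -0.04 in mutants, against 0.03, 0.30, 0.20 and 0.35 in wild type, without overlap (difference -0.59 ± 0.16). Acta2, the actin of vascular smooth muscle and activated stellate cells, was -0.55, -0.30, 0.23 and 0.10 in mutants, against 0.08, 0.43, -0.05 and 0.68 in wild type (difference -0.41 ± 0.23). Myh11, the smooth muscle myosin heavy chain gene, was -0.12, -0.01, 0.03 and -0.07 in mutants, against -0.05, 0.44, -0.49 and 0.09 in wild type. The Myh11 groups overlapped throughout (difference -0.04 ± 0.19), and its sign turned with the values as deposited (0.077), with array weights (0.038) and without wild type replicate 2 (0.11). Myl9, a regulatory light chain gene, differed by -0.27 ± 0.16.

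The actin-binding genes of smooth muscle include Cnn1 and Tagln, which encode calponin and transgelin, and Smtn and Lmod1, which encode smoothelin and a leiomodin. Lmod1 was -0.23, -0.13, -0.12 and -0.26 in mutants, against 0.10, 0.79, 0.32 and 0.86 in wild type, without overlap (difference -0.71 ± 0.18). Cnn1 was -0.56, -0.24, -0.41 and -0.01 in mutants, against 0.27, 0.85, -0.01 and 0.58 in wild type (difference -0.73 ± 0.21). Its highest mutant and its lowest wild-type mouse were nearly level. Smtn differed by -0.39 ± 0.16 and Tagln by -0.29 ± 0.12, both with overlapping groups.

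Probes of the same gene did not all give the same difference. The 35 genes had 65 probes, 22 genes with 1 probe and 13 with several, and 59 probes were negative and 6 positive. Of the 65 probes 8 passed alone, beside 16.3% of all 41174 probes. The 6 positive probes belonged to Neb (1 of 6), Ttn (2 of 10), Ryr1 (1 of 3) and Acta2 (2 of 5). For Ryr1, probe A_51_P256401 differed by 0.22 ± 0.14 and stayed between -0.13 and 0.54 in every mouse, while the other two probes differed by -3.19 and -2.88. The averages for these genes therefore stand for none of their probes exactly.

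Ttn, which encodes the giant spring protein titin, had probes of 3 kinds. Probe A_52_P524700 was -2.95, -3.19, -2.17 and -0.41 in mutants, against 0.40, 2.97, 0.68 and 3.42 in wild type. It was the only Ttn probe that passed alone (difference -4.05 ± 0.88). Probe A_52_P659477 was -0.10, -0.36, -0.11 and -0.05 in mutants, against -0.01, 2.92, 0.78 and 3.27 in wild type. On this probe the 4 mutants and wild type replicate 1 spanned 0.35, whereas wild type replicates 2 and 4 stood about as high as on the first probe. The 78 control features spanned a median of 0.58 over the same 5 arrays. These arrays leave out wild type replicates 2, 3 and 4, where this probe was higher. Its small span therefore does not show that it lay at background. Probes A_51_P171486 and A_51_P403586 differed by 0.17 ± 0.27 and 0.44 ± 0.33 and lacked the high values in wild type replicates 2 and 4. Whether a probe was above background in a given array was not recorded in the values used here. Averaged over the 10 probes, Ttn was -0.82, -1.04, -0.45 and 0.02 in mutants, against 0.04, 1.87, 0.07 and 2.23 in wild type (difference -1.62 ± 0.56).

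**Figure D4:**
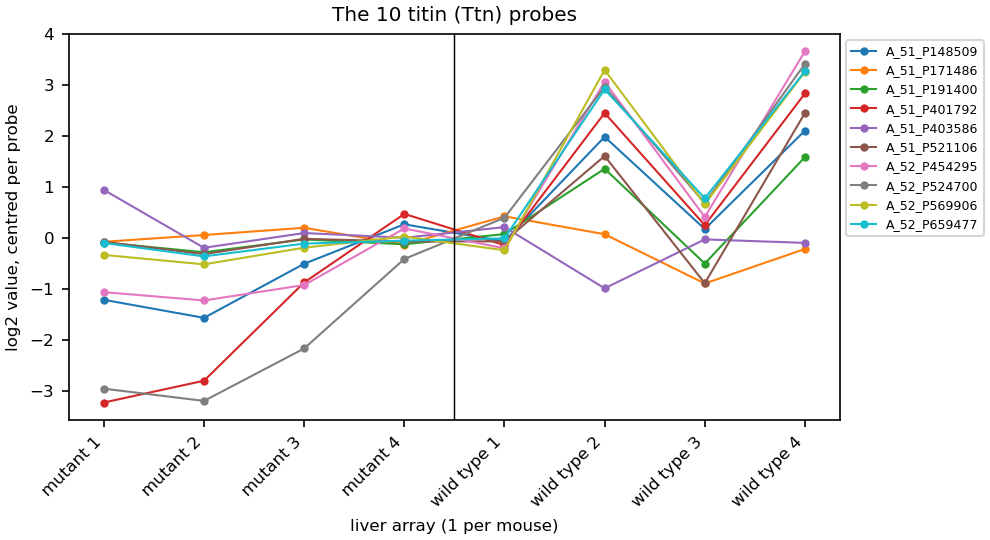
Values of the 10 Ttn probes in the 8 arrays (log2, centred per probe), 1 line per probe. Of the 10 probes 8 peak in wild type replicates 2 and 4, and probe A_52_P524700 reaches -3.19 in mutant 2 while probe A_52_P659477 stays at -0.36 there.

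Other skeletal muscle genes mostly had the same high and low mice. Their lists, like those of the other tissues described after them, were also drawn up with earlier results of these mice known, so their calls and p-values describe these arrays and are no independent support. Of 28 other sarcomere genes 24 were negative and the median difference was -1.37. Of 23 genes of excitation, calcium release and energy supply 21 were negative, with a median of -1.84. Wild type replicate 4 was the highest and wild type replicate 2 the second highest array for 16 of the 28 and 17 of the 23. Limma called 2 of the 28 lower and 1 of the 23, beside 8.93% of rows. Myom2, which encodes the M-band protein myomesin 2, fell by 1.79 ± 0.34 (adjusted p = 0.0120), and Smyd1, which encodes a muscle methyltransferase, fell by 0.59 ± 0.14 (adjusted p = 0.0261). Art1, which encodes an ADP-ribosyltransferase of the muscle surface, fell by 2.98 ± 0.83 (limma, adjusted p = 0.0479). The Art1 call was lost in 12 of the 17 alternative settings, among them the values as deposited, robust variance moderation, array weights, a test without moderated variance and leaving out wild type replicate 1 (adjusted p of 0.0204 to 0.117 over the 17). The Smyd1 call was lost in 8, the values as deposited among them, and the Myom2 call in 1. Lmod3 (-1.13), Casq2 (-1.84) and Cacng1 (-2.13) had adjusted p-values of 0.0544 to 0.0663 and did not pass. Leaving out mutant 4 raised the counts to 10 of 28 and 10 of 23, and leaving out wild type replicate 1 gave 5 and 2, of which the 2 were Cacng1 and Sgca. The Smyd1 call was lost without mutant 2 or 3 or wild type replicate 1, 3 or 4. The first count was 1 without mutant 2 or 3 or wild type replicate 4, and the second was 0 without mutant 1, 2 or 3 or wild type replicate 2 or 4. Both were 0 without wild type replicates 2 and 3 together.

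Genes shared with the heart did not all have the skeletal profile. Myh7 and Myl2, expressed in slow fibres and in the heart, differed by -2.71 ± 0.89 and -2.87 ± 0.83 and had the profile of the skeletal members, with mutant 4 at 0.76 and 0.39. Myh6, which encodes the alpha myosin heavy chain of the heart, was -2.32, -1.92, -2.39 and 0.94 in mutants, against -0.21, 2.40, 0.32 and 2.34 in wild type (difference -2.63 ± 0.92). It had the largest difference of the cardiac list, and mutant 4 lay above wild type replicates 1 and 3 as for most skeletal members. Actc1, the cardiac actin gene, differed by -0.90 ± 0.30, with wild type replicates 4 and 2 highest. In the list of 10 cardiac genes the median was -0.18, with 5 negative and 5 positive. Limma called 1 of the 10 higher and 1 lower, beside 6.52% and 8.93% of rows. Nppb, which encodes a natriuretic peptide, rose by 0.95 ± 0.20, and Mybpc3, which encodes the cardiac myosin-binding protein C, fell by 0.84 ± 0.23 (adjusted p = 0.0184 and 0.0424). Pln, which encodes phospholamban, differed by -1.52 ± 0.46 (adjusted p = 0.0654). The Nppb call was lost without mutant 1 or 2 or wild type replicate 2 or 4, and the Mybpc3 call without any one of mutants 1 to 3 or wild type replicates 1 to 4 and with the values as deposited.

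The regulators of muscle genes did not share the profile as a group. Of 12 measured, 6 were negative and 6 positive (median -0.02). Mef2d, which encodes a MEF2 factor also found outside muscle, rose by 0.92 ± 0.14 (limma, adjusted p = 0.00544). Myf6, which encodes the main myogenic factor of adult fibres, was -1.68, -1.84, -0.10 and -0.29 in mutants, against 0.20, 1.06, 0.06 and 0.64 in wild type (adjusted p = 0.0689). Vgll2, a cofactor gene of skeletal muscle, had the profile of the members and differed by -2.35 ± 0.87 (adjusted p = 0.116).

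Other smooth muscle genes did not move one way. Of 24 measured, 10 were negative and 14 positive, with a median of 0.07 against 0.08 for all rows. Wild type replicate 4 was the highest and wild type replicate 2 the second highest array for 5 of the 24, against 3.05% of all named genes. Limma called 2 lower and 2 higher, beside 8.93% and 6.52% of rows. Tpm2, which encodes a tropomyosin of both smooth and slow skeletal muscle, fell by 1.98 ± 0.53 and Cald1, which encodes caldesmon, by 0.74 ± 0.21 (adjusted p = 0.0430 and 0.0491). Pcp4, which encodes a calmodulin-binding peptide, rose by 1.997 ± 0.15 and Mylk, which encodes the myosin light chain kinase, by 0.49 ± 0.12 (limma, adjusted p = 0.000477 and 0.0304). Mylk was -0.082 when the median of its probes was used, and its call was lost without any one of mutants 1 to 3 or wild type replicates 2 and 3. Tpm2 and Cald1 lost their calls without any one of mutants 1 to 3 or wild type replicates 2 to 4, and Cald1 also without mutant 4. Both calls were also lost with the values as deposited and in a test without moderated variance, while both higher calls remained under these settings.

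Markers of other tissues moved with the mice in other orders. In 12 squamous epithelium genes the array mean was -0.86, -0.93, -1.15 and -1.20 in mutants 1 to 4, against 0.85, 2.47, 1.28 and 0.94 in wild type replicates 1 to 4. Here mutant 4 was as low as the other mutants, and wild type replicate 4 was not among the highest. Limma called 6 of the 12 lower, led by Crct1 (-7.32 ± 0.68), Krt4 (-6.58 ± 0.71) and Krt13 (-4.17 ± 0.57). Of all rows, limma called 8.93% lower and 6.52% higher. In this list 9 genes were negative and 3 positive (Krt14 0.10, Dsg3 0.42 and Ivl 0.51). In 10 exocrine pancreas genes the mean was -1.77, 0.77, -4.16 and 1.42 in mutants, against -0.82, -2.15, 3.16 and 2.33 in wild type. Wild type replicate 4 was high for both pancreas and skeletal muscle, while wild type replicate 2 was high for skeletal muscle and low for pancreas. The pancreatic lipase and elastase genes Pnliprp1, Cela2a and Cela1 differed by -2.28 ± 2.01, -1.83 ± 1.68 and -1.72 ± 1.39. In 9 glandular stomach genes the mean was 2.04, 0.07, -0.57 and 1.98 in mutants, against -0.18, -0.63, -0.30 and -0.24 in wild type, and limma called 1 higher (Tff1, 2.33 ± 0.37). Gkn3 and Gkn2, which encode gastrokines, differed by 3.62 ± 1.44 and 2.35 ± 1.01 without passing. In 10 intestinal genes it was 0.67, -0.17, 0.20 and 2.51 in mutants, against -0.30, -0.54, -0.26 and -0.08 in wild type, and limma called 1 lower (Fabp2, -1.19 ± 0.18). Lypd8 and Tff3 differed by 3.05 ± 0.99 and 1.97 ± 0.56 without passing. Mutant 4, the mutant with the highest skeletal mean, also had the highest intestinal mean. The part of these tissues in the muscle values was not tested, and since the values carry no levels, it cannot be said which of their markers were absent from an array.

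**Figure D5:**
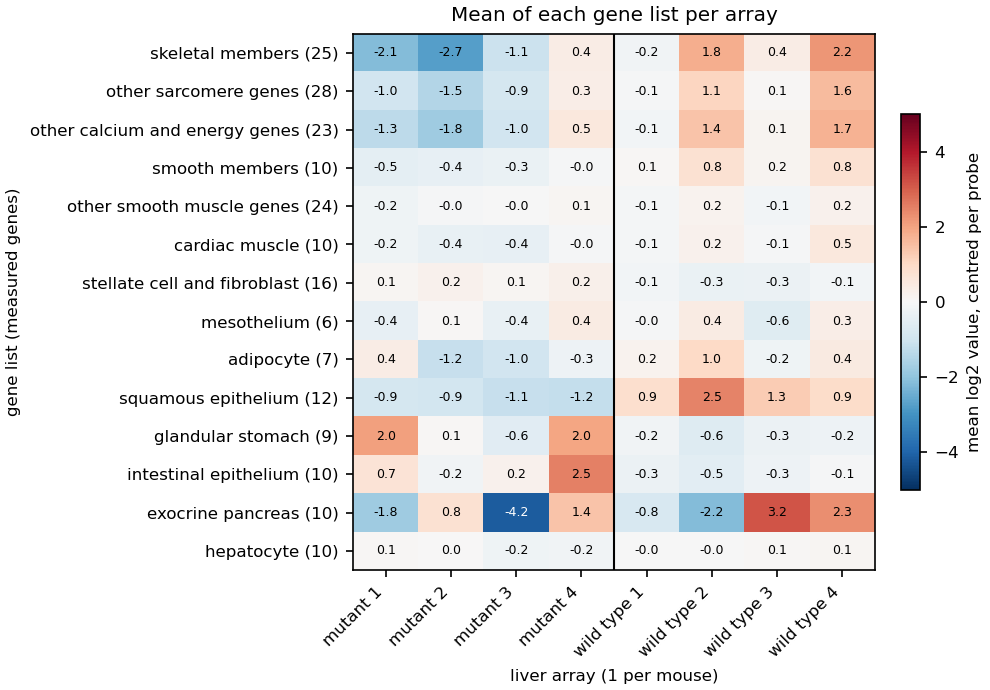
Mean of each gene list in each array (log2, centred per probe), with the number of measured genes in brackets. The skeletal rows share 1 order of mice, with 2.22 for the members in wild type replicate 4, while the squamous, stomach, intestinal and pancreatic rows have other orders and the hepatocyte row stays between -0.20 and 0.11.

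Cells of the liver itself and of its surface varied less. The array means of 16 stellate cell and fibroblast genes lay between 0.08 and 0.24 in mutants and between -0.34 and -0.12 in wild type, which is the opposite direction to the smooth muscle members. Limma called 5 of these higher and 1 lower, beside 6.52% and 8.93% of all rows. Ngfr, Col1a1, Col3a1, Col1a2 and Lum rose by 0.54 to 1.12, and Lrat fell by 0.45. The Ngfr call held under all 17 alternatives. The Lrat call was lost in 10 of the 17, the Col1a2 call in 9, the Col1a1 call in 5 and the Lum call in 4. The Col3a1 call held without any 1 mouse but was lost with the median of probes, with the replicate block and without wild type replicates 2 and 3 together. The stellate counts were 7 higher and 0 lower with the values as deposited, and 3 higher and 1 lower with the median of probes. They were 2 higher and 0 lower with the replicate block, without mutant 2 and without wild type replicate 3. Without wild type replicates 2 and 3 together they were 1 higher and 0 lower. Limma called 0 of 6 mesothelial and 0 of 10 exocrine pancreas genes, with 0 of either at an unadjusted p under 0.05 and 0 by the same comparison without limma's moderated variance. The pancreas means nevertheless spanned 7.32 over the 8 arrays. The means of the 6 mesothelial genes lay between -0.41 and 0.40 in mutants and between -0.59 and 0.42 in wild type, and Upk3b, Wt1 and Gpm6a differed by -0.59 ± 0.37, 0.32 ± 0.32 and -0.22 ± 0.29. Those of 11 endothelial genes lay between -0.04 and 0.40 in mutants and between -0.29 and -0.10 in wild type, with Stab1 called higher (0.64 ± 0.14), while Lyve1 (0.84 ± 0.34) and Clec4g (0.84 ± 0.26) did not pass. Those of 10 hepatocyte genes lay between -0.20 and 0.07 in mutants and between -0.03 and 0.11 in wild type, with Ttr, Apoc3 and Hpd called lower (-0.71 to -0.41). The Stab1 call was lost without mutant 1 or 2 or wild type replicate 2, and the Apoc3 and Hpd calls without any one of mutants 2 to 4 or wild type replicates 2 to 4. Hpd also lost its call without wild type replicate 1 and with a common median. With the values as deposited, 1 hepatocyte gene was called higher (Hnf4a) and 1 lower (Ttr). Which hepatocyte genes passed thus depended on the scaling, while Ttr was called lower in both. In 7 adipocyte genes the mean was 0.36, -1.16, -0.97 and -0.27 in mutants, against 0.19, 0.98, -0.20 and 0.44 in wild type, and Car3, a gene also expressed in skeletal muscle and liver, was called lower (-2.11 ± 0.18). Adipoq and Plin1 differed by -1.51 ± 0.73 and -1.29 ± 0.63 without passing. Mutants 2 and 3 were thus low for adipocyte and skeletal genes alike, while mutant 1 was low for skeletal genes and not for adipocyte genes.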

How the data were processed

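The authors' deposited table held log2 values of 41252 probes in 8 columns, normalised by a method that is not given in the sources used here and centred on the median of each probe over the 8 arrays. Base 2 was inferred from their range. Columns were grouped by the genotype in the sample labels, and 0 columns were left unused. The 78 control features were left out, and each array was shifted to a common 75th percentile (shifts of -0.09 to -0.01 in mutants and 0.05 to 0.07 in wild type). Of 41174 probes, 32664 had a single symbol, 45 several and 8465 none; single-symbol probes were averaged per gene into 19532 named genes, 28042 rows in all. Mutant and wild-type arrays were compared with lmFit and eBayes, two-sided, from limma 3.58.1 (R 4.3.3), adjusted by Benjamini-Hochberg over all rows. Depth has no meaning for arrays, and their number limits the precision.

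The 35 members, the other gene lists, the alternatives and the naming rule (all members, and the 3 genes of smallest p in every other list) were chosen with earlier results of these data known. Many genes that a count of 5 or fewer refers to are named too, but not for every such count. Myh7, Myl2, Myh6, Actc1, Sgca, Hnf4a and Alb were named after their values were seen. Promoters came from the RefSeq table of GRCm38.p6, and Python 3.11.15 with matplotlib 3.10.9 made the figures. The alternatives covered scaling, probe averaging, the fit, the replicate number as a block and leaving out mice.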

Additional observations from a re-analysis of the deposited data

How the results depend on the processing

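The median skeletal difference stayed between -3.19 and -2.24 and the smooth muscle median between -0.62 and -0.38 under the 17 alternatives, and 0 members were called higher under any of them, or at an unadjusted p under 0.05, or by the Student test. The 5 members called lower became 1 with the values as deposited, with a common median and with a plain Student test (skeletal 0 and smooth 1 in each), 2 with the replicate block (1 and 1) and 0 without the 2 wild-type arrays with lower control features (0 and 0). Leaving out 1 mouse gave 1 to 18 members, 0 to 16 skeletal, 1 to 2 smooth, skeletal medians of -3.19 to -2.24, smooth medians of -0.59 to -0.43 and 2884 to 3696 rows. All rows called were 2030 with the replicate block and 1766 without those 2 arrays, against 4333. Over all rows, same-numbered arrays deviated from their group means with correlations of -0.10 to 0.10, and differently numbered arrays with -0.10 to 0.13. Correlations over all rows cannot show whether same-numbered arrays shared a factor that affected only some genes. The cause of the changes in these counts was not tested, and the fits that left out mice also had fewer arrays. Single probes turned the sign for Neb A_51_P300552 (0.26), Ttn A_51_P171486 (0.17) and A_51_P403586 (0.44), Ryr1 A_51_P256401 (0.22) and Acta2 A_52_P239556 (0.17) and A_52_P644232 (0.46). Myh11 turned to 0.077 as deposited, 0.038 with array weights and 0.11 without wild type replicate 2 (-0.21 to 0.11 leaving out 1 mouse), and Mylk to -0.082 with the median of probes. Signal over background was not recorded, so differences of dim probes may be too small.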
